A study of Homo sapiens with 4 samples.

Results

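The keratin genes are the 55 protein-coding genes on chromosomes 12 and 17 whose symbol is KRT followed by a number and at most 1 letter, out of 19821 protein-coding genes placed on chromosomes 1 to 22 and X of hg38. They form 2 clusters, with 27 genes on chromosome 12 and 28 on chromosome 17. The mark measured was histone H2A carrying a single ubiquitin on a lysine of its tail (H2AK119ub), by chromatin immunoprecipitation and sequencing in H1 cells, an established line of human embryonic stem cells grown in mTeSR1 medium. The YTHDF1 KD H1 cells were treated with a short hairpin RNA (shRNA) against YTHDF1, which encodes a reader of methylated adenosine in messenger RNA. They were set beside wild-type H1 cells that the labels call untreated, so an effect of the hairpin treatment itself and one of lower YTHDF1 cannot be told apart. The hairpin sequence and the number of clones are not given in the sources used here. Each group had 1 H2AK119ub library, whose peak list was analysed, and 1 input library that was not analysed here. There is therefore no replicate spread, no difference below was tested, and values of both lists are given side by side. The lists hold 34390 knockdown and 32791 wild-type peaks on these chromosomes and no read counts, so the depth behind them is unknown.

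Keratins are the intermediate filament proteins of epithelial cells. Filaments are built from pairs of an acidic type I keratin and a basic or neutral type II keratin. The type II genes lie together on chromosome 12 and the type I genes on chromosome 17, except KRT18, a type I gene that sits at the edge of the type II cluster next to its partner KRT8. KRT7, KRT8, KRT18 and KRT19 are made in simple, single-layered epithelia, while most other members are made in stratified epithelia, hair follicles or the hair shaft. H2AK119ub is written by Polycomb repressive complex 1, which is often found at CpG-rich promoters of developmental genes in embryonic stem cells. A peak shows where the mark was called and says nothing about the level of the gene's RNA, so neither the cell type nor the knockdown could be checked here.

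Promoter windows of 5 keratin genes show the DNA that these peaks do or do not touch. RefSeq (GRCh38.p14) gave windows from 250 bases before to 50 bases after an annotated start for 34 of the 55 genes, and capitals mark CpG. The first 3 windows lay in a wild-type peak and in no knockdown peak, and those of KRT5 and KRT10, keratins of basal and suprabasal epidermis, lay in no peak of either list. The KRT8 window stands at an annotated start inside the gene, away from both gene ends. Both lists had peaks near the KRT8 ends. All 5 are on the minus strand, and KRT8 is at chr12:52926420-52926719, KRT3 at chr12:52796068-52796367, KRT36 at chr17:41489861-41490160, KRT5 at chr12:52520345-52520644 and KRT10 at chr17:40822565-40822864.
KRT8: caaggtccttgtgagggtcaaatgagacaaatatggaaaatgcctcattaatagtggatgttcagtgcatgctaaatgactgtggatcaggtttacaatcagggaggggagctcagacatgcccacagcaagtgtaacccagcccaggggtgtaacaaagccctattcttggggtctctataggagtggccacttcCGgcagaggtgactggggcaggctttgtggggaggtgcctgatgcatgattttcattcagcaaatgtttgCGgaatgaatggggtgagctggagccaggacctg
KRT3: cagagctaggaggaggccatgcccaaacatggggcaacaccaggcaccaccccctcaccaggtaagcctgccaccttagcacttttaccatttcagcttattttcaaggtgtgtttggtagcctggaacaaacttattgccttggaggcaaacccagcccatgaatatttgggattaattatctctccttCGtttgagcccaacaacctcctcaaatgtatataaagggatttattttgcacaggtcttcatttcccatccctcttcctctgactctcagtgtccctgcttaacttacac
KRT36: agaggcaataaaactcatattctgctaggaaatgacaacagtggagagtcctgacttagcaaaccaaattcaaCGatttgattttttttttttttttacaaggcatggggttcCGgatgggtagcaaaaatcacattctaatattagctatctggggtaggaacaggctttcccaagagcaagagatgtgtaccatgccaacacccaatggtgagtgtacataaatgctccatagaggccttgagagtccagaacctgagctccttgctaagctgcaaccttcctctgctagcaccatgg
KRT5: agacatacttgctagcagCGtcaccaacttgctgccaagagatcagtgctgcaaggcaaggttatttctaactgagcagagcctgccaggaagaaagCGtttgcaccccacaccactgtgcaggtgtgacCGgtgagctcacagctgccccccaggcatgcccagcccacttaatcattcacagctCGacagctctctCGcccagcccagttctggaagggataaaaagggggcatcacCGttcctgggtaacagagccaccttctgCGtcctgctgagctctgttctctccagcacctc
KRT10: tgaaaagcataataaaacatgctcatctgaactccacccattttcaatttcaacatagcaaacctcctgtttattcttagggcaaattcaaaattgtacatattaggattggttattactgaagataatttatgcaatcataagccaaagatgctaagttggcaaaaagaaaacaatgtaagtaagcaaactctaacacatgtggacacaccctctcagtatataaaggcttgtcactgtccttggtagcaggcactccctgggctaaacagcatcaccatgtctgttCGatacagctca

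These windows are poor in CpG. They hold 2 CpG in KRT8, 1 in KRT3, 2 in KRT36, 7 in KRT5 and 1 in KRT10, and the 38 windows of the 34 keratin genes hold at most 8. The 22132 windows of protein-coding genes in the table have a median of 21 CpG, and 28% of them have 8 or fewer. Over that whole table, windows touched by a peak had a median of 27 CpG and untouched windows a median of 6, in each of the lists. Peaks touched 0 of the 34 keratin genes' windows in knockdown cells and 3 in wild-type cells. The shares over all genes with a window were 65.5% in knockdown cells and 64.8% in wild-type cells. Only 61.8% of the keratin genes have a window, below the 80% needed to describe the family, so the CpG check is void for the family and covers these 34 genes alone. KRT7, KRT14, KRT18, KRT19, KRT77, KRT83 and KRT86, which had peaks near their ends in both lists, are not among the 34, so the counts of touched windows say nothing about the promoters of these genes and cannot be read against the shares of all genes.

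Across the family, the mark was called near a smaller share of genes than among protein-coding genes in general. Peaks reached to 10 kb or less from a gene end at 23 of the 55 keratin genes (41.8%) in knockdown cells and at 23 (41.8%) in wild-type cells, where the shares of all protein-coding genes were 75.3% and 74.8%. At 20 genes this held in both lists, and 29 genes had no peak within 10 kb in either list, against 20.8% of all protein-coding genes. Marked genes are those with a peak no farther than 2 kb from an end. In the knockdown 11 keratin genes (20%) were marked and in the wild type 13 (23.6%), where the share of all protein-coding genes was 69.4% in each list. The other 2125 protein-coding genes of chromosomes 12 and 17 were marked in 75.9% of cases in knockdown cells and 75.6% in wild-type cells.

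Most of the marked keratin genes were marked in both lists. KRT7, KRT8, KRT18, KRT19, KRT77, KRT14, KRT82, KRT83, KRT86 and KRT36 were marked in both, 10 in all. KRT72 alone was marked in the knockdown only, where 4.78% of all protein-coding genes were. KRT80, KRT3 and KRT13 were marked in the wild type only, where again 4.78% of all protein-coding genes were. These shares are over all genes, marked or not. Of the 13761 protein-coding genes marked in each list, 12813 were marked in both. For the keratins it was 10 of the 11 marked in knockdown cells and 10 of the 13 marked in wild-type cells. With the upper 50% of each list by score, no keratin gene was marked in 1 list alone, and 8 were marked in knockdown cells and 8 in wild-type cells.

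Covered length, the number of bases inside peaks within 10 kb of either end of a gene, averaged 2.74 kb per keratin gene in knockdown cells and 3.24 kb in wild-type cells, a difference of -15.5%. The means of all protein-coding genes were 7.70 and 8.79 kb (-12.4%). At short genes the windows of both ends overlap and were merged, so covered length has a lower ceiling there than at long genes. Covered length was not adjusted for window size. The part of window size in the gap between keratin genes and all protein-coding genes was not tested. Both lists were measured over the same windows. The median keratin gene had 0 kb in both lists, where the median of all protein-coding genes was 5.02 kb in knockdown cells and 5.6 kb in wild-type cells. Covered length was shorter in the knockdown at 16 keratin genes, longer at 9 and equal at 30, of which 29 had none in either list. Of all protein-coding genes, 49.1% were shorter, 27.8% longer and 23.1% equal. The difference in the keratin mean was -12.3% without KRT7 and -15.1% without KRT7, KRT8, KRT18 and KRT19.

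**Figure D1:**
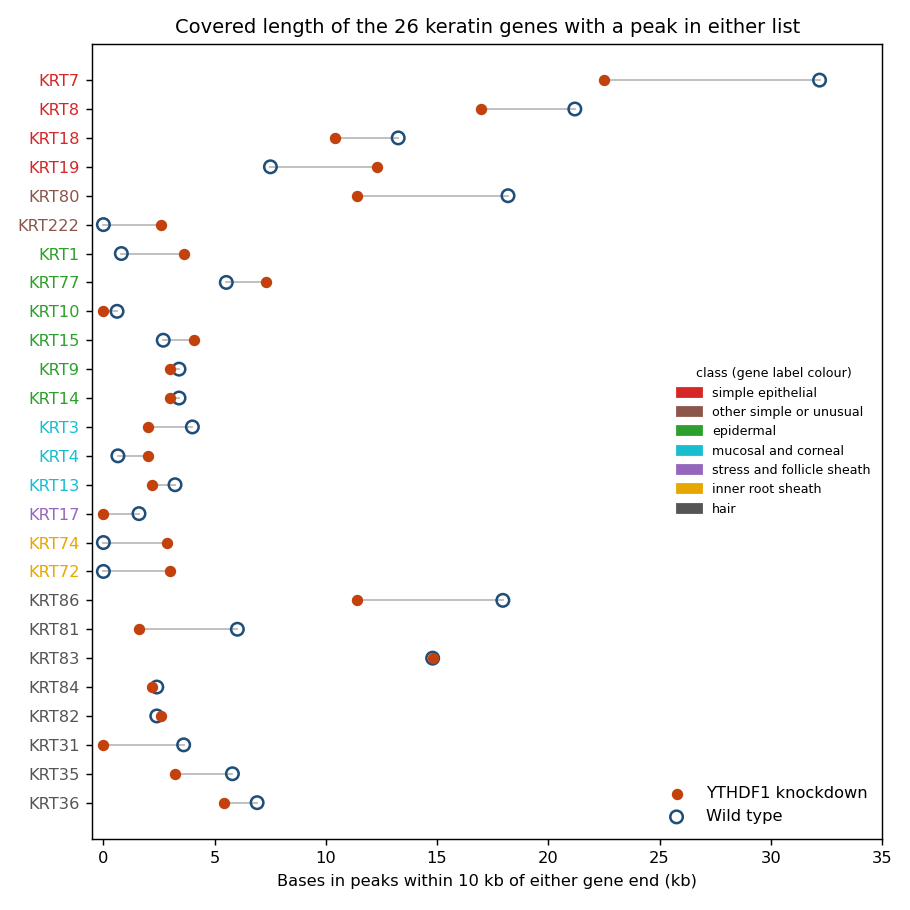
Bases inside H2AK119ub peaks within 10 kb of either end (kb, x axis) for the 26 keratin genes with a peak in either list, grouped by class; filled points are the YTHDF1 knockdown library and open circles the wild-type library, 1 library each. KRT7 has the longest covered length in both lists (22.5 kb in the knockdown, 32.2 kb in the wild type), and KRT83 has 14.8 kb in both.

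The 4 simple-epithelial keratins were all marked in both lists, with a mean covered length of 15.6 kb in knockdown cells and 18.5 kb in wild-type cells. The other 51 keratins had means of 1.73 and 2.04 kb, with 7 marked in knockdown cells and 9 in wild-type cells. Of all protein-coding genes 69.4% were marked in each list, with means of 7.70 kb in knockdown cells and 8.79 kb in wild-type cells. Being marked is therefore not particular to these 4 genes. KRT8 and KRT18 share part of their windows and peaks. The merged windows of KRT18 (24.1 kb) and KRT19 (24.7 kb) were smaller than those of KRT7 and KRT8, which are longer genes. Covered lengths are therefore not shares of equal windows, and the part of window size in these means was not tested. No test of the difference between these 4 and the other 51 was possible.

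The remaining classes had few marked members. Of the 17 hair keratins, 4 were marked in each list, and their mean covered length was 2.42 kb for the knockdown and 3.52 kb for the wild type. Of the 8 epidermal keratins, 2 were marked in each list, with means of 2.63 kb for the knockdown and 2.05 kb for the wild type. Among the 8 mucosal and corneal keratins, 0 were marked in knockdown cells and 2 in wild-type cells, and among the 8 of the inner root sheath, 1 was marked in knockdown cells and 0 in wild-type cells. The 6 keratins of stress and the follicle sheath had 0 marked members in both lists. KRT20, KRT23, KRT80 and KRT222 formed a class of 4 other simple or unusual keratins. Of these, 0 were marked in knockdown cells and 1 in wild-type cells, with means of 3.50 and 4.55 kb. The intestinal keratin KRT20 had 0 kb in both lists, so KRT7, KRT8, KRT18 and KRT19 do not stand for every simple keratin. These classes follow textbook roles.

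KRT7, a type II keratin of glands and ducts that is also made in trophoblast and amnion, had the most bases in peaks within 10 kb of its ends of all keratin genes, while KRT8 had more of them inside the gene. Its covered length was 22.5 kb in knockdown cells and 32.2 kb in wild-type cells. The windows of KRT7 were among the largest of the keratin genes, which leaves room for a longer covered length than at short genes. In the knockdown, 3 peaks touched the gene (chromosome 12, 52233243 to 52255853) or its ends: one of 7.6 kb (52230201 to 52237800), one of 8.4 kb (52245601 to 52254000) and one of 6.4 kb (52255001 to 52261400). In the wild type the matching peaks measured 13 kb (52227401 to 52240400), 11.4 kb (52241201 to 52252600) and 10.4 kb (52254401 to 52264800). Over the whole lists, the median peak width was 3.6 kb in knockdown cells and 4.4 kb in wild-type cells. Each of these knockdown peaks at KRT7 overlapped its wild-type counterpart and was narrower. Whole peaks summed to 22.4 kb in knockdown cells and 34.8 kb in wild-type cells. The first of them had the highest deposited score of all peaks in the keratin windows, 81.4 in knockdown cells and 140 in wild-type cells, above 91.3% and 92.8% of the peaks of their own lists. Within 5 kb of the ends the difference at KRT7 shrank to -1.6 kb, from 16.6 kb in knockdown cells and 18.2 kb in wild-type cells.

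KRT8 and KRT18, the partner pair of simple epithelia, shared a marked border. KRT8 (chromosome 12, 52897191 to 52949860) and KRT18 (52948855 to 52952906) overlap in the annotation, so a peak at the border counts for both. In the knockdown a peak of 6.2 kb (52943801 to 52950000, score 76.3) held the whole overlap of the genes, and a second peak of 2.6 kb (52950801 to 52953400, score 2.81) began past the end of KRT8, inside KRT18. A single wild-type peak of 12.6 kb (52940201 to 52952800, score 47.7) held the overlap and nearly all of KRT18.

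At its other end, KRT8 had knockdown peaks of 2.8 kb (52896001 to 52898800) and 5 kb (52903401 to 52908400), and wild-type peaks of 3.2 kb (52897601 to 52900800) and 10.2 kb (52901801 to 52912000). The covered length of KRT8 was 16.99 kb in knockdown cells and 21.2 kb in wild-type cells, and that of KRT18 was 10.4 kb in knockdown cells and 13.3 kb in wild-type cells. The KRT8 difference of -4.2 kb shrank to -0.991 kb within 5 kb of its ends (10.5 kb in knockdown cells and 11.5 kb in wild-type cells) and was -8 kb with the upper 50% of peaks by score. For KRT18 the sign depended on the window, with 10.3 kb in knockdown cells and 8.95 kb in wild-type cells within 5 kb of its ends. Of the KRT8 gene body, 18.5 kb lay in knockdown peaks (35.1%) and 31.1 kb in wild-type peaks (59.0%). The printed KRT8 window stands at an annotated start inside the gene (52926469). It lay in a wild-type peak of 5 kb (52925201 to 52930200), while the nearest knockdown peak on that side began at 52927401, past the window's end. That knockdown peak (52927401 to 52931000) overlapped the wild-type peak.

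KRT19, a type I keratin of simple epithelia and ducts on chromosome 17 (41523617 to 41528308), had a longer covered length in the knockdown, unlike the other 3. It was 12.3 kb in knockdown cells and 7.51 kb in wild-type cells. The peak on the gene measured 6.4 kb in the knockdown (41524801 to 41531200, score 57.3) and 5.2 kb in the wild type (41526201 to 41531400, score 84.1). Next to it lay a peak of 7.2 kb in the knockdown (41532401 to 41539600) and one of 4.8 kb in the wild type (41536001 to 41540800). The knockdown value also exceeded the wild-type value with windows of 5 kb (by 2.11 kb) and of 20 kb (by 4 kb), and in whole peaks touching the gene (by 1.2 kb).

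**Figure D2:**
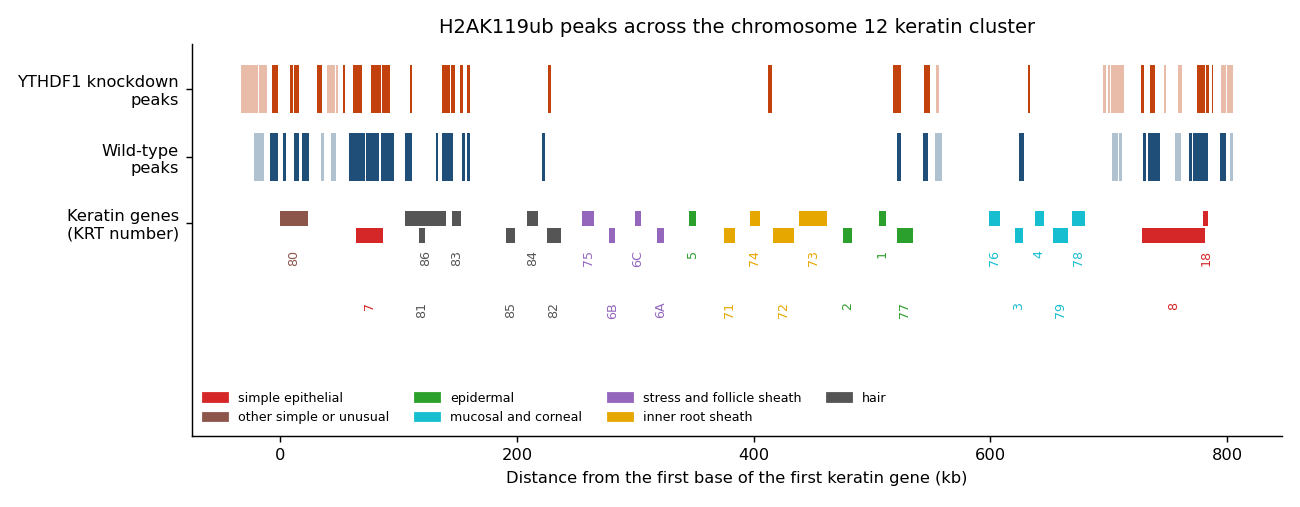
H2AK119ub peaks along the chromosome 12 keratin cluster, by distance from the first base of KRT80 (kb); the rows show knockdown peaks, wild-type peaks and the 27 keratin genes labelled by number and coloured by class, and pale peaks lie outside the 10 kb windows. Peaks crowd around KRT80, KRT7, KRT86 and KRT83 on the left and KRT8 and KRT18 on the right, and few lie between.

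On chromosome 12 the peaks gathered at both ends of the cluster. The cluster runs over 784 kb, and the merged windows of its genes hold 643 kb. In these windows 23 knockdown peaks covered 82.2 kb (12.8%) and 21 wild-type peaks covered 107 kb (16.7%), a difference of -23.4%. No merged value is given for all protein-coding genes, whose mean covered length per gene differed by -12.4%. Without KRT80 and KRT7 the difference of the cluster was -15.4%, with windows of 20 kb -10.3%, and with the upper 50% of peaks by score -37.6%. From KRT75 to KRT71 a run of 6 genes, KRT75, KRT6B, KRT6C, KRT6A, KRT5 and KRT71, had no peak within 10 kb in either list. The longest stretch without a peak was 184 kb in the knockdown (52397401 to 52581000), holding 7 keratin genes, and 297 kb in the wild type (52392601 to 52689600), holding 12. In the longer, wild-type stretch the knockdown list had a peak of 2.6 kb at KRT82 (52394801 to 52397400), one of 3 kb between KRT74 and KRT72 (52581001 to 52584000, score 6.50) and the first bases of the KRT77 peak. Among all gaps between neighbouring peaks of a list, 8.72% in knockdown cells and 5.78% in wild-type cells were at least this long. KRT6A, KRT6B and KRT6C are near-identical copies, and the sources used here do not say how reads that map to several places were treated. The part of this in the peak-free run was not tested.

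Several hair keratins of chromosome 12 next to KRT7 also had peaks. KRT81, KRT83 and KRT86 build the hair cortex, and KRT81 lies inside the annotated span of KRT86. KRT86 (chromosome 12, 52274645 to 52309163) had 11.4 kb in knockdown cells and 18.0 kb in wild-type cells. KRT83 had 14.8 kb in both lists, made of 4 knockdown peaks and 3 wild-type peaks. KRT81 was unmarked, with 1.6 kb in knockdown cells and 6.02 kb in wild-type cells. The peaks behind these genes are partly the same ones, since a peak of 6.4 kb in the knockdown (52306001 to 52312400) and one of 9.4 kb in the wild type (52305601 to 52315000) lay near the ends of both KRT86 and KRT83. KRT82, a keratin of the hair cuticle, had 2.6 kb in knockdown cells and 2.4 kb in wild-type cells, from peaks that did not overlap each other. KRT84 had 2.18 kb in knockdown cells and 2.4 kb in wild-type cells from the same peaks, and KRT85 had none in either list.

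KRT80, a type II keratin at the outer edge of the cluster, had 11.4 kb in knockdown cells and 18.2 kb in wild-type cells. A wild-type peak of 5.8 kb covered its upper end (52187601 to 52193400), where the knockdown list had no peak. In the knockdown, peaks of 2.4 kb (52177401 to 52179800) and 4 kb (52180601 to 52184600) lay inside the gene, and 6.4 kb of the gene body was in peaks (27.8%), against 11.6 kb in the wild type (50.5%). Measured from the gene ends alone, the nearest knockdown peak lay 2.196 kb below the lower end, past the 2 kb that count as marked. When peaks inside a gene also counted, 12 keratin genes were marked in knockdown cells and 13 in wild-type cells, with 1 in the knockdown alone and 2 in the wild type alone.

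The epidermal and mucosal keratins of chromosome 12 had short covered lengths. KRT77, an epidermal type II keratin, was marked in both lists by peaks of 6.4 kb in the knockdown (52686801 to 52693200, score 18.9) and 4 kb in the wild type (52689601 to 52693600, score 35.6). Its covered length was 7.32 kb in knockdown cells and 5.52 kb in wild-type cells. The same peaks reached the window of KRT1, the suprabasal partner of KRT10, which had 3.61 kb in knockdown cells and 0.807 kb in wild-type cells. KRT2 and KRT5 had none in either list. KRT3, a keratin of the corneal epithelium, had 2 kb in the knockdown from a peak 4.28 kb from its end, and 4 kb in the wild type from a peak over its promoter with a score of 2.71, above 1.61% of the peaks of that list. KRT4, a keratin of mucosal epithelium, had 2 kb in knockdown cells and 0.652 kb in wild-type cells, and KRT76, KRT78 and KRT79 had none.

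Of the inner root sheath keratins of chromosome 12, KRT72 and KRT74 had a peak in the knockdown list and none in the wild-type list. The 3 kb peak between KRT74 and KRT72 gave KRT72 a covered length of 3 kb in the knockdown against 0 kb in the wild type, and KRT74 2.84 kb in the knockdown against 0 kb in the wild type. Its score of 6.50 exceeded 16.9% of the knockdown peaks. KRT71 and KRT73 had none in either list.

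**Figure D3:**
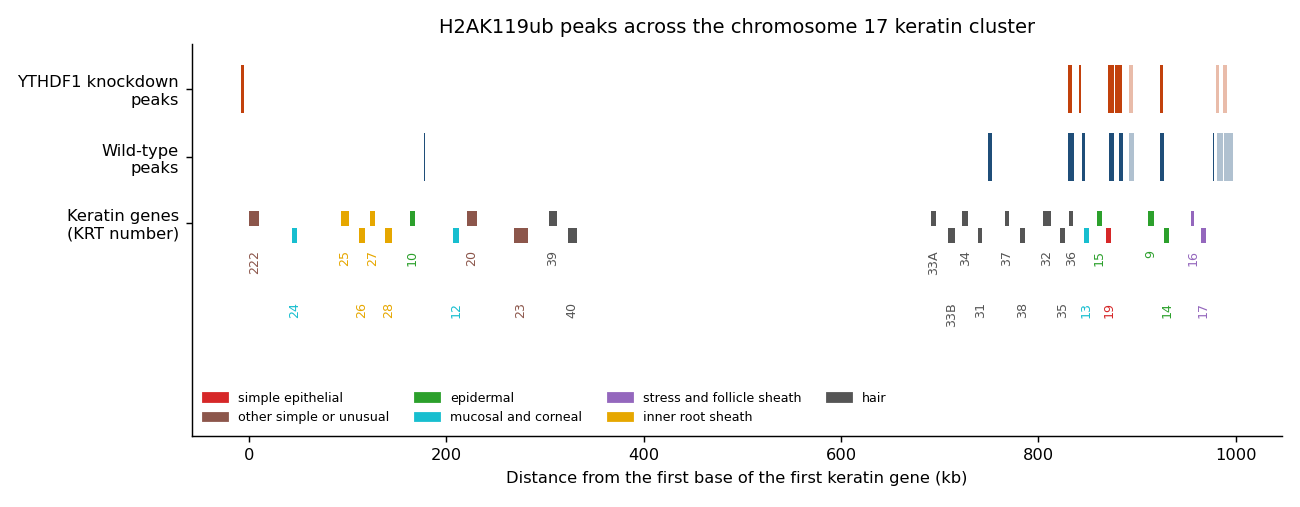
H2AK119ub peaks along the chromosome 17 keratin cluster, by distance from the first base of KRT222 (kb), drawn as for chromosome 12 with knockdown peaks above wild-type peaks and the 28 keratin genes. Most peaks lie at the right, around KRT36, KRT13, KRT19 and KRT14, and the rest of the cluster is nearly bare.

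The chromosome 17 cluster carried less of the mark than the chromosome 12 cluster in each list. It runs over 970 kb, with 554 kb in merged windows, where 6 knockdown peaks covered 23.3 kb (4.21%) and 8 wild-type peaks covered 25.7 kb (4.65%). A peak lay within 10 kb at 8 of its 28 genes in knockdown cells and at 10 in wild-type cells, and 3 and 4 genes were marked. The difference in covered length was -9.41%, but it turned to 108% with the upper 50% of peaks by score, so no direction is given for this cluster. Peak numbers this small rest on single peaks.

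The bare part of the chromosome 17 cluster was long in both lists. The knockdown list had no peak over 836 kb (40649401 to 41485200), a stretch with 20 keratin genes from KRT222 to KRT35 and 54 protein-coding genes in all. The longest wild-type stretch measured 571 kb (40833401 to 41404000), with 9 keratin genes from KRT12 to KRT31 and 43 protein-coding genes. Gaps at least this long made up 1.63% of all gaps of the knockdown list and 2.75% of those of the wild-type list. The wild-type list had 2 lone peaks within what was bare in the knockdown. One of 1.4 kb (40832001 to 40833400, score 6.94) lay 9.39 kb from KRT10, and one of 3.8 kb (41404001 to 41407800, score 9.28) lay 6.39 kb from KRT31, a hair keratin. At the lower edge, KRT222 had 2.6 kb in knockdown cells and 0 kb in wild-type cells, from a peak at the end of SMARCE1, a chromatin remodeller subunit gene. KRT10 had 0 kb in knockdown cells and 0.614 kb in wild-type cells, and KRT31 had 0 kb in knockdown cells and 3.61 kb in wild-type cells. The inner root sheath keratins KRT25, KRT26, KRT27 and KRT28, the intestinal keratin KRT20 and the corneal keratin KRT12 had none in either list, nor had KRT23, KRT24 and the hair keratins KRT32, KRT33A, KRT33B, KRT34, KRT37, KRT38, KRT39 and KRT40.

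The marked genes of chromosome 17 lay together around KRT19. KRT36, a hair keratin, was reached by a peak of 3.2 kb in the knockdown (41485201 to 41488400) and one of 5.8 kb in the wild type (41485201 to 41491000), which shared their first base. The wild-type peak held its printed promoter window and the knockdown peak ended before it. Its covered length was 5.4 kb in knockdown cells and 6.91 kb in wild-type cells, and the same peaks gave the neighbouring hair keratin KRT35 3.2 kb in knockdown cells and 5.8 kb in wild-type cells. KRT13, the mucosal partner of KRT4, had 2.2 kb in the knockdown from a peak 2.78 kb from its end, and 3.22 kb in the wild type with a peak over the end (41498801 to 41502000). KRT15, a keratin of basal cells, had 4.09 kb in knockdown cells and 2.69 kb in wild-type cells, both from the KRT19 peak.

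KRT14, the basal epidermal partner of KRT5, was marked in both lists by a peak beside the gene. It measured 3 kb in the knockdown (41578401 to 41581400, score 16.9) and 3.4 kb in the wild type (41578401 to 41581800, score 20.5). It ended 0.879 kb from the gene in the knockdown and 0.479 kb from it in the wild type, and the gene body itself held none in either list. The same peak gave KRT9, a keratin of the palm and sole, 3 kb in knockdown cells and 3.4 kb in wild-type cells. KRT16 had none in either list. KRT17, which like KRT16 rises in wounded skin, had 0 kb in knockdown cells and 1.6 kb in wild-type cells. A knockdown peak that lay 10.03 kb from the KRT17 end fell just outside the window, and the farthest knockdown peak inside a window lay 9.64 kb from KRT7. In the wild type the corresponding distances were 11.2 kb at KRT17 and 9.90 kb at KRT18.

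Both lists had 29 peaks in the keratin windows. Of these, 21 knockdown peaks (72.4%) and 19 wild-type peaks (65.5%) overlapped a peak of the other list by 1 bp or more, where the shares of all peaks were 74.1% and 71.4%. With a required overlap of 50% of each peak, 13 knockdown and 14 wild-type peaks were shared. The shared peaks had median widths of 5 kb in knockdown cells and 5.4 kb in wild-type cells, and the unshared ones 2.3 and 2.9 kb. Median scores were 18.7 for shared and 9.54 for unshared knockdown peaks, and 33.5 for shared and 9.42 for unshared wild-type peaks. A region without a peak in 1 list may lie just under the threshold of its caller, which cannot be seen without counts. The score is the authors' own value per peak and ranks peaks within a list only. None of these peaks reached its ceiling of 1000. Since neighbouring windows overlap, 14 knockdown and 12 wild-type peaks lay in the windows of several keratin genes, and the counts of genes do not stand for separate peaks.

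Lists of genes related to the keratins by family or by role in epithelia are set beside the 69.4% of all protein-coding genes marked in each list. Of the 16 other intermediate filament genes, which include vimentin, the lamins and the neurofilaments, 15 were marked in knockdown cells (93.8%) and 16 in wild-type cells (100%), with mean covered lengths of 14.3 and 14.4 kb. LMNB2, which encodes a nuclear lamin, had the longest covered length over both lists added together, with 27.4 kb in knockdown cells and 28.6 kb in wild-type cells, and BFSP2, a filament gene of the eye lens, was marked in the wild type alone, with 2.6 kb in knockdown cells and 2.4 kb in wild-type cells. Of the 17 desmosome and plakin genes, which anchor keratin filaments, 12 were marked in knockdown cells (70.6%) and 13 in wild-type cells (76.5%), near the share of all protein-coding genes, with means of 7.80 and 10.1 kb. PLEC, which encodes a linker of filaments to junctions, had the longest covered length over both lists added together. It was 24.9 kb in knockdown cells and 27.95 kb in wild-type cells. DSG2, a desmosomal cadherin of simple epithelia, was marked in the wild type alone, with 0 kb in knockdown cells and 4.4 kb in wild-type cells. Covered length was shorter in the knockdown at 10 of the 17 desmosome and plakin genes, longer at 3 and equal at 4. For all protein-coding genes the shares were 49.1% shorter, 27.8% longer and 23.1% equal. The largest difference in this list was at EVPL, with 14 kb in knockdown cells and 28.6 kb in wild-type cells.

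Regulators and late products of the epidermis were counted in the same way. Of 15 regulators of epidermal and epithelial fate, 13 were marked in each list (86.7%), with means of 11.9 kb in knockdown cells and 12.1 kb in wild-type cells. Peaks filled the whole windows of TFAP2A, an early surface ectoderm factor, in both lists, while TP63, the master regulator of stratified epithelia, had none within 10 kb of its ends in either list. TP63 is a long gene (chromosome 3, 189596746 to 189897276), and peaks deeper inside it were not counted. Of 13 cornified envelope genes, 1 was marked in knockdown cells (7.69%) and 2 in wild-type cells (15.4%). TCHH, a structural protein of the inner root sheath, had 12.4 kb in knockdown cells and 12.6 kb in wild-type cells, and TGM1, the transglutaminase of the cornified envelope, was marked in the wild type alone, although its covered length was 13.2 kb in knockdown cells and 11.8 kb in wild-type cells. IVL, LORICRIN and FLG had none in either list.

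**Figure D4:**
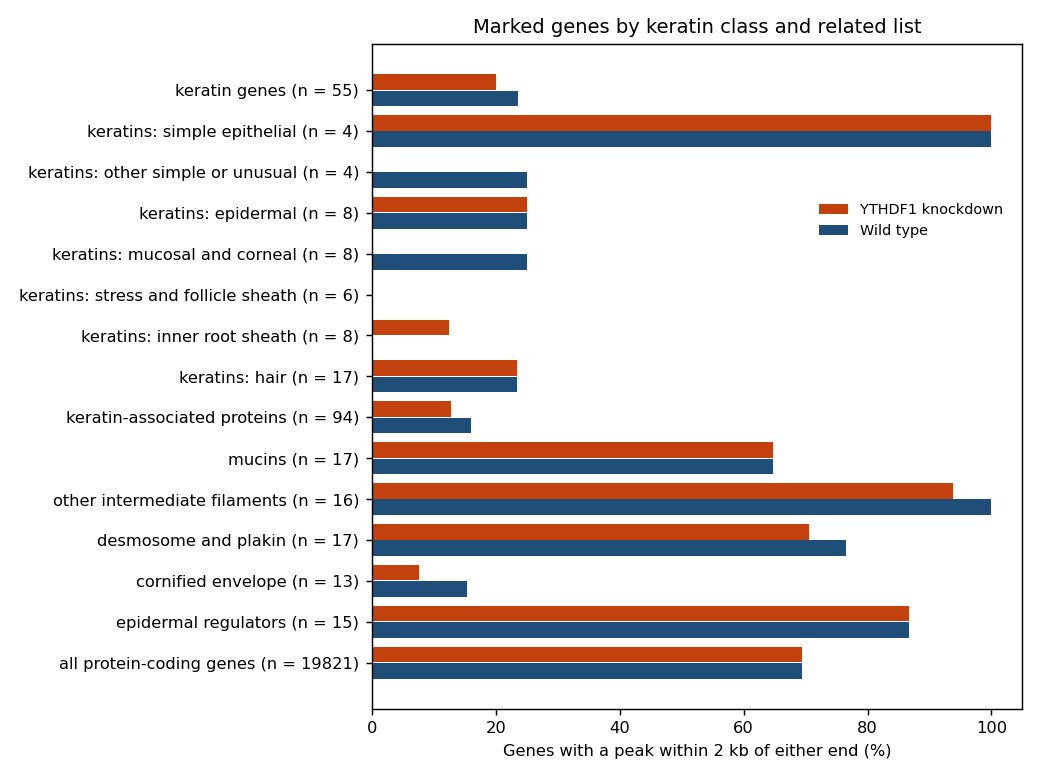
Share of genes with a peak within 2 kb of either end (percent, x axis) for the keratin genes, their classes, the related lists and all protein-coding genes; in each pair the upper bar is the knockdown and the lower bar the wild type, with the number of genes in parentheses. The 55 keratins stand at 20% and 23.6%, the 4 simple-epithelial keratins at 100% in both lists, and all protein-coding genes at 69.4% in both.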

How the data were processed

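The submitters' processing notes name SICER 1.1, MACS2 2.1.0, Bowtie2 2.2.5, Trimmomatic 0.35, Picard and SAMtools 1.3.1, and build hg38. The sources used here do not say which tool called the peaks or whether the input served as control. The deposited lists give each peak a position and a score of undefined meaning, from 2.00 to 1000, used only within a list. Starts follow a 200 bp grid, and positions are printed 1-based. No read counts are given, so depth is unknown and no interval could be set.

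Gene positions came from RefSeq (GRCh38.p14), without scaffolds. Covered lengths were computed with Python 3.11.15 and pandas 2.3.3, over windows of 10 kb to both sides of each gene end, and checked on simulated peaks. Where the windows of a gene overlapped they were merged, so short genes had smaller windows. Genes named by rule are KRT7, KRT8, KRT18, KRT19, every marked keratin, the 3 keratins that lost and the 3 that gained most covered length, and in related lists the gene of longest covered length and those marked in 1 list alone. Other keratins, TP63, IVL, LORICRIN, FLG, MUC5B and EVPL were named after their values were seen, and the sequences of KRT3 and KRT36 were added then. The members and lists were chosen with earlier results of these data known. Each group had 1 library, so no test was run.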

Additional observations from a re-analysis of the deposited data

How the results depend on the processing

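No paired analysis was possible because each group had 1 library and no result comes from a test. With no replicate spread, every change in a percentage is given. With windows of 5 kb (1 kb for marked genes), 16 keratin genes had a peak in knockdown cells and 15 in wild-type cells. The knockdown then differed from the wild type by -14.7% in mean covered length, -14.6% on chromosome 12 and -10.8% on chromosome 17. The KRT18 difference reversed to 1.4 kb. With windows of 20 kb (5 kb for marked genes), the differences in the same order were -15.4%, -10.3% and -16.4%, and 2 keratin genes were marked in the knockdown alone and 1 in the wild type alone. With the upper 50% of peaks by score, 13 genes in each list had a peak within 10 kb and 8 in each list were marked. In that setting 0 were marked in the knockdown alone and 0 in the wild type alone. The differences were then -25.3%, -37.6% and 108%, so the chromosome 17 cluster reversed; the wild-type peak beside KRT19 (score 13.9) lay under its list's median of 16.5. With peaks of at least 2 kb they were -16.8%, -25.5% and -0.885%, and with lists of equal length -18.5% over the family and -25.8% on chromosome 12. With whole genes in the windows they were -18% over the family and -25.8% on chromosome 12. Alternatives chosen after seeing the data gave -12.3% without KRT7, -15.1% without all 4 simple-epithelial keratins, and on chromosome 12 -15.4% without KRT80 and KRT7 and -23.7% without KRT8 and KRT18. With 50% of both peaks overlapping, 13 knockdown peaks and 14 wild-type peaks were shared. The 5' end alone and the CpG split were not run, because a start and strand were held for 34 of 55 genes. The cause of these shifts was not tested.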

Other observations

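The keratin-associated protein genes, whose products cross-link hair keratins, number 94, of which 12 were marked in knockdown cells (12.8%) and 15 in wild-type cells (16%), where the share of all protein-coding genes was 69.4% in each list. None of the 34 on chromosome 17 had a peak within 10 kb in either list. They all lie inside the long peak-free stretch of the chromosome 17 keratin cluster given above, so this is the same gap and not a separate observation. The 49 on chromosome 21 had 9 marked genes in each list, though KRTAP10-4 and KRTAP10-5 were marked in the knockdown alone and KRTAP10-3 and KRTAP10-7 in the wild type alone. KRTAP5-1, KRTAP5-9 and KRTAP5-11 on chromosome 11 were also marked in the wild type alone. KRTAP10-12 had the longest covered length, 12.2 kb in knockdown cells and 14.5 kb in wild-type cells. Over the whole list the mean was 1.03 kb in knockdown cells and 1.68 kb in wild-type cells.

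Mucin genes encode gel-forming and membrane glycoproteins of mucosal surfaces. The list took 17 whose symbol is MUC and a number with at most 1 letter and number, so MUC5AC is not in it. These 17 had 11 marked members in each list (64.7%), near the 69.4% of all protein-coding genes. Their means were 8.56 kb in knockdown cells and 11.5 kb in wild-type cells. MUC3A, a membrane mucin of the gut, had the longest covered length over both lists added together. It was 24.8 kb in knockdown cells and 27.4 kb in wild-type cells. Covered length was shorter in the knockdown at 8 of the 17 mucin genes, longer at 3 and equal at 6. Among all protein-coding genes 49.1% were shorter, 27.8% longer and 23.1% equal. The largest difference was at MUC5B, with 5.8 kb in knockdown cells and 27.2 kb in wild-type cells.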
